A study of Mus musculus with 12 samples.

Results

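Dense bodies are the small electron-dense plaques in which the thin filaments of a smooth muscle cell (SMC) are anchored, and Z-discs are the matching anchors at the ends of the sarcomeres of striated muscle. In both, α-actinin crosslinks actin, and proteins with PDZ, LIM or filamin domains bind to it, tie it to desmin filaments and pass tension across the cell. Because their proteins are needed to carry force, genes of these structures are commonly read as part of the contractile program of SMCs.

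Transcripts of 9 genes of these structures were examined in mouse abdominal aortas, and all 9 were found by symbol among the 55092 features of the deposited table. They were Synpo2, Flnc and Nexn, which bind or crosslink actin, Pdlim3, Pdlim7, Ldb3 and Csrp1, which carry LIM domains, Des, which forms the intermediate filaments of muscle, and Tcap, which caps titin at the Z-disc. The genes were selected on their FPKM in CSA, which were known to be low against CFA. Every value of the 9 that rests on CSA is therefore given as a description. Where such a value is said to meet the call rule, this is not read as a test. All 9 passed the filter on low values, which asked for 1 FPKM or more in 3 or more libraries and kept 14676 genes. FPKM is the number of fragments of a gene per unit of gene length and of library size, and allows levels to be set side by side between genes.

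The mice were male, and each group had 3, with 1 library per mouse. CCN2fl/fl mice, which carry floxed alleles of Ccn2 and no Cre, received saline (CFS, mice 68, 69 and 70) or angiotensin II (Ang II; CFA, mice 71, 72 and 74). CCN2SMCΔ mice, in which Cre-ERT2 under the Myh11 promoter deletes the floxed gene in SMCs, received saline (CSS, mice 54, 55 and 56) or Ang II (CSA, mice 01, 02 and 03). Mice of all 4 groups were given 5 doses of tamoxifen from 8 weeks of age and a washout of 2 weeks, and were then infused by mini-osmotic pump for 7 days. Ang II was given at 500 ng/kg/min. RNA came from abdominal aortic tissue without separation of cell types, so that cells without Cre also contributed, and in such bulk samples fewer cells of a type and less RNA per cell cannot be told apart.

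Library sizes recovered from the deposited values ran from 14558636 to 23107914 fragments, with the lowest in CSA mouse 03. These sizes include a scaling between libraries in the deposited values, so they are not the number of fragments sequenced. Ccn2 itself was at 480 to 1108 FPKM in CFS, 436 to 640 in CSS, 564 to 1105 in CFA and 255 to 399 in CSA. The ranges overlapped between CSS and CFS (log2 fold change -0.40, 95% interval -1.14 to 0.34, adjusted p 1) and not between CSA and CFA (-1.41, adjusted p 0.00622). The exons that Cre removes are not given in the sources used here, and 23.2% of the exonic bases of Ccn2 overlap another annotated gene. All 10 smooth muscle markers were present in every saline library, from 18.7 FPKM for Tagln to 7650 for Acta2, although 67.9% of the exonic bases of Tagln overlap other genes. A pair of saline libraries (CFS mouse 68 and CSS mouse 55) also held skeletal muscle transcripts, and CSA mouse 03 stood apart from the other CSA libraries; both are described with the genes they touch.

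The promoters of 3 of the genes are printed because their sequences hold, or lack, short motifs linked to muscle transcription. RefSeq (GRCm38.p6) gave 10 promoters for 7 of the 9 genes, each from 250 bases before to 50 bases after a start; Tcap and Nexn were not among them. These motifs were searched on both strands: the CArG box bound by serum response factor (CC, 6 bases that are each A or T, then GG), CATTCC, bound by TEAD factors, TATAAA, and the E-box CANNTG. Capitals mark the CArG box in the Ldb3 promoter (chr14:34588632-34588931, minus strand) and both CATTCC matches, the first of them on the opposite strand, in the Pdlim3 promoter (chr8:45885237-45885536, plus strand). The Synpo2 promoter (chr3:123236100-123236399, minus strand) had neither.
Ldb3: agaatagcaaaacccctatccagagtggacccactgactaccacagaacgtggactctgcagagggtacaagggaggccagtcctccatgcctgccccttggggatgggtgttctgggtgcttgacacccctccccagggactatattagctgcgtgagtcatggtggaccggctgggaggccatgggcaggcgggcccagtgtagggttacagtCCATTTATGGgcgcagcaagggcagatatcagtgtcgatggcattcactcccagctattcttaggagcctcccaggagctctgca
Pdlim3: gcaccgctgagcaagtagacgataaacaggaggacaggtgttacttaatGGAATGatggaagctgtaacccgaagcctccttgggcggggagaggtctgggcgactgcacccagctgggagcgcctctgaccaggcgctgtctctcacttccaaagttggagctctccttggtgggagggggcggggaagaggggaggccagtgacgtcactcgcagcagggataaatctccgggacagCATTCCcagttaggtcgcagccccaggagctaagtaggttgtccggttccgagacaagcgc
Synpo2: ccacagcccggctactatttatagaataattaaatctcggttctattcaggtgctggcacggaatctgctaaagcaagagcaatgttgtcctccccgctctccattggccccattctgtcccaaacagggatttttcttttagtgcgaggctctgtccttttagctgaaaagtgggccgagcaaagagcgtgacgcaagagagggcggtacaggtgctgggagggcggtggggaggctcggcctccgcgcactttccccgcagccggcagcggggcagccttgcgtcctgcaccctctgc

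The CArG box of Ldb3 lay 35 to 26 bases before the start, and the same bases stood 109 to 100 bases before a further start of the gene. Ldb3 was the 1 gene of 7 with a CArG box, which 1.63% of 32851 mouse promoters hold. CATTCC was found in 2 of the 7 (Pdlim3, and Flnc in 2 overlapping promoters) and in 14.7% of all promoters. TATAAA was found in Synpo2 alone, 233 to 228 bases before the start on the opposite strand, against 13.6% of all promoters, and CANNTG in 4 of 7 (Synpo2, Des, Pdlim3 and Csrp1) against 72.3%. No match of a motif overlapped a match of another. Of 7 smooth muscle markers with a promoter, 1 held a CArG box in this window.

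In saline-infused CCN2fl/fl aortas the 9 genes summed to 1601 ± 206 FPKM (SD, n = 3), and Csrp1 alone made up 62.4% of it. Des followed at 172 FPKM, Pdlim7 at 103, Synpo2 at 94.8, Pdlim3 at 67.2, Nexn at 55.9, Tcap at 42.0, Ldb3 at 36.5 and Flnc at 29.6. Of these neighbours, only Pdlim7 with Synpo2 and Tcap with Ldb3 had ranges that overlapped. The sum was 1588 ± 164 FPKM in CSS, 1344 ± 245 in CFA and 210.2 ± 48.3 in CSA. The CSA aortas thus lay between 158 and 253 FPKM in sum, below the lowest aorta of any other group (1074 FPKM, CFA).

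**Figure D1:**
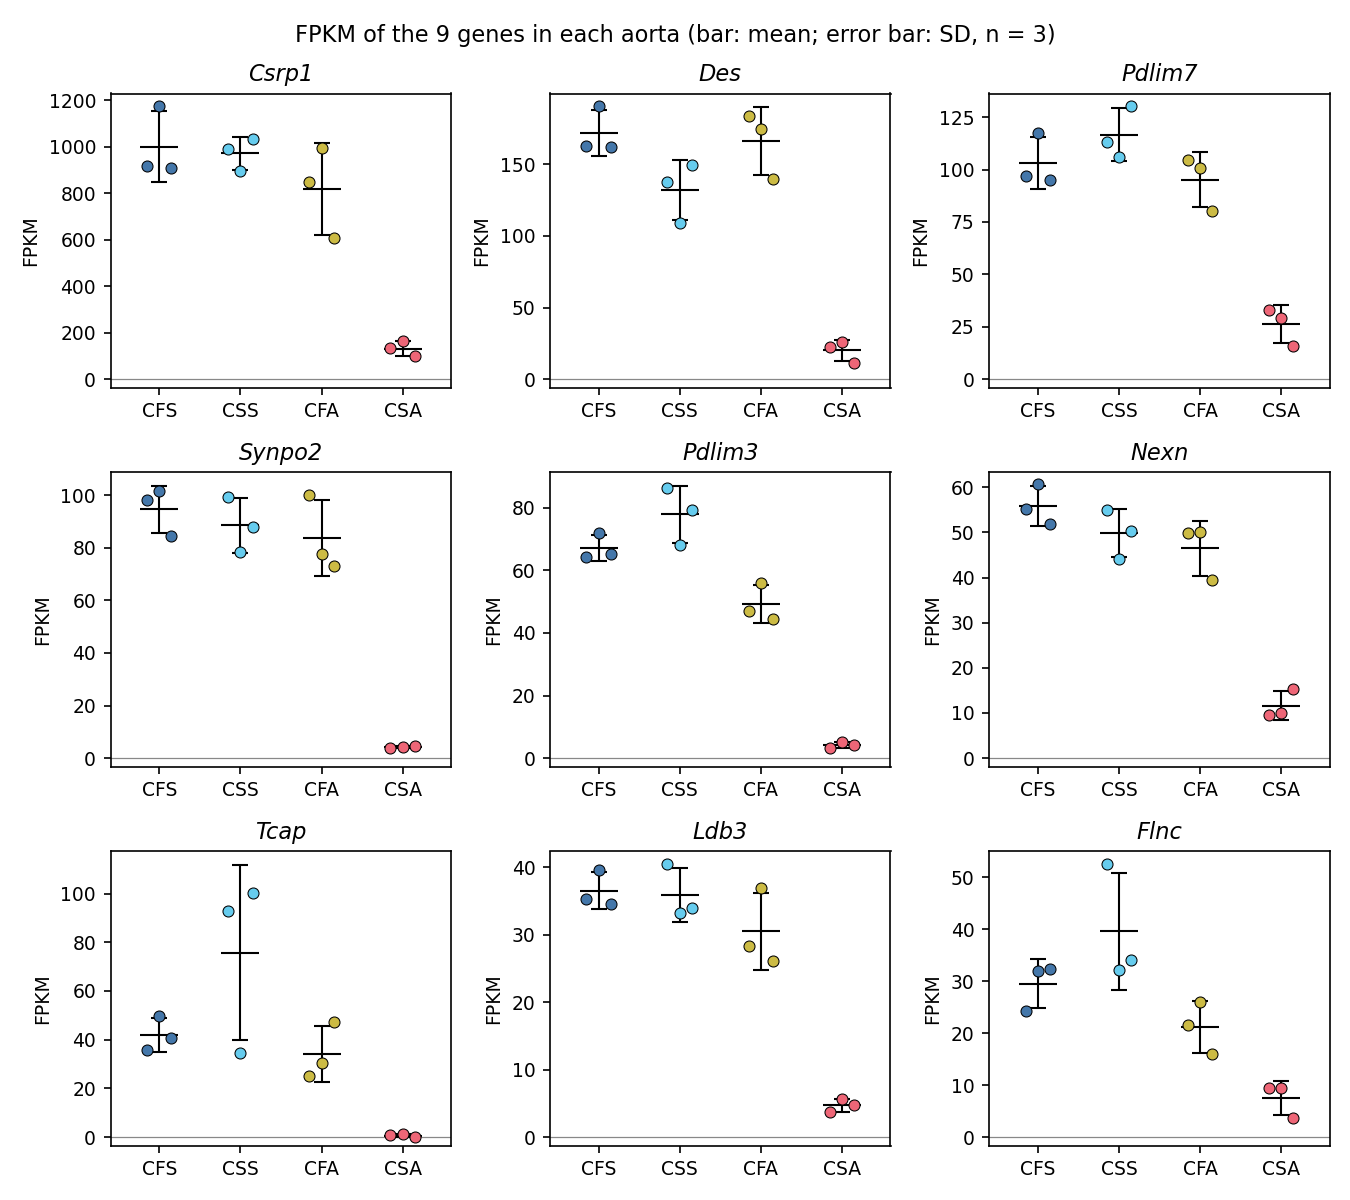
FPKM (y axis, linear, with 0 marked by a grey line) of each of the 9 genes in the 12 aortas, by group (x axis); points are mice, and the bar and error bar are the mean and SD of 3 mice. For every gene the 3 CSA points lie below all 9 points of the other groups, with Tcap at 0 to 1.14 FPKM and Csrp1 at 97.9 to 163 FPKM in CSA.

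Deletion of Ccn2 in SMCs without Ang II was examined first, by comparing CSS with CFS. The difference itself uses no library from which the genes were chosen. Its interval and p-value, however, rest on the spread within all 4 groups pooled, CSA and CFA among them, and so are not independent of those libraries. A gene was called where its adjusted p was under 0.05 and its log2 fold change beyond 1.5 in either direction. None of the 9 genes was called, against 0.0136% of all genes tested, and 0 had an unadjusted p under 0.05, against 6.3% of all genes. Adjusted p-values ran from 0.972 to 1. The intervals of the difference bound how far the genes could have moved. They were narrowest for Synpo2 (log2 fold change -0.10, 95% interval -0.44 to 0.24) and Pdlim3 (0.21, -0.15 to 0.57), and for Csrp1 the estimate was -0.03 (-0.52 to 0.46).

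Des was the 1 gene whose groups did not overlap, being lower in CSS (109 to 150 FPKM) than in CFS (162 to 191 FPKM), against 9.31% of all genes that were lower without overlap. Its log2 fold change was -0.39 (95% interval -0.98 to 0.21, adjusted p 0.972), which did not pass. Tcap had the widest interval, at 0.72 (-1.01 to 2.45). The width is not that of the saline mice alone, since the pooled spread includes CSA. There, on the log2(FPKM + 0.1) scale, Tcap was at -3.32 in mouse 03, a value of 0 FPKM set by the pseudocount. The mean of CSA mice 01 and 02 was 0.06. In FPKM, Tcap was at 35.7, 49.6 and 40.6 in CFS mice 68, 69 and 70, and at 92.7, 34.6 and 100.1 in CSS mice 54, 55 and 56. A pair of CSS aortas thus stood above every other aorta of the study for Tcap, and the third below the CFS aortas.

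Tcap is best known from striated muscle, so skeletal muscle transcripts were examined beside it. Of 20 skeletal and cardiac muscle markers, 11 were higher in CFS mouse 68 and CSS mouse 55 than in each of the other 10 libraries. Acta1, skeletal actin, reached 75.6 and 115 FPKM in them against at most 2.15 elsewhere, and Myh4, a fast skeletal myosin, 25.9 and 40.0 against at most 0.0687. Myot and Myoz1, Z-disc proteins of striated muscle, were likewise higher there, at 1.18 and 1.295 FPKM (at most 0.0446 elsewhere) and at 2.72 and 3.74 FPKM (at most 0.651 elsewhere). Tcap was at 35.7 and 34.6 FPKM in that pair, inside the range of the other saline and CFA aortas. Against the same aortas, Des in CSS mouse 55 (108.7 FPKM) was below all others (at least 137.4 FPKM). In the CSS aortas with most Tcap (mice 54 and 56), the 20 markers summed to 14.59 and 14.2 FPKM, against 338.5 FPKM in CSS mouse 55 and 207.6, 16.33 and 15.1 FPKM in CFS mice 68, 69 and 70; their part in the Tcap values was not tested. Without the pair, 0 of the 9 genes were called between CSS and CFS. With all mice in the fit 0.0136% of all genes tested were called, so nothing is read from this count.

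**Figure D2:**
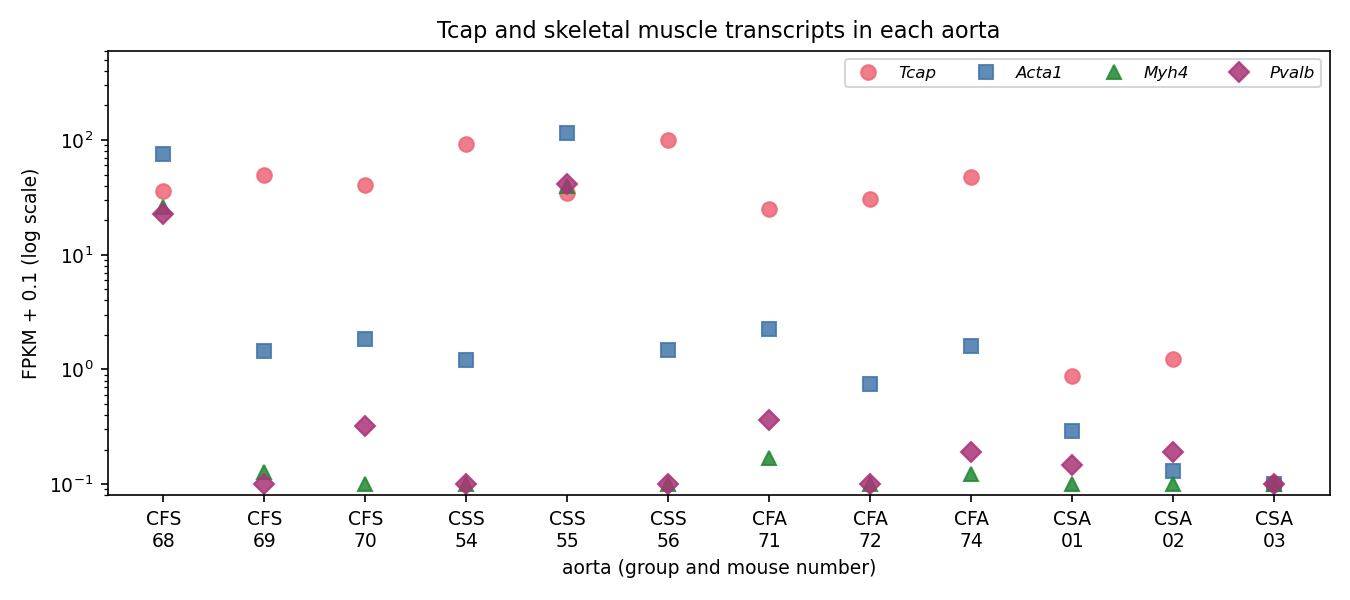
FPKM + 0.1 (y axis, log scale) of Tcap and of the skeletal muscle genes Acta1, Myh4 and Pvalb in each of the 12 aortas (x axis, group and mouse number). The skeletal genes peak in CFS mouse 68 and CSS mouse 55 (Acta1 at 75.6 and 115 FPKM), whereas Tcap is highest in CSS mice 54 and 56 (92.7 and 100.1 FPKM) and lowest in the CSA aortas.

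Next, the effect of Ang II in CCN2fl/fl mice was examined by comparing CFA with CFS. This comparison shares the CFA libraries with that of CSA and CFA, in which the genes were known to be low. The CFA values thus took part in the choice of the genes, and the counts and p-values of this comparison are given as a description. None of the 9 genes was called, against 0.0273% of all genes, and 1 had an unadjusted p under 0.05, against 9.42% of all genes. That gene was Pdlim3, which encodes the α-actinin-associated LIM protein (ALP). It was at 64.3, 71.95 and 65.3 FPKM in CFS and at 47.1, 55.9 and 44.3 FPKM in CFA, with a log2 fold change of -0.46 (95% interval -0.82 to -0.09, p 0.0183 by limma, adjusted p 0.411). Pdlim3 and Nexn were lower in CFA without overlap between the groups, against 10.8% of all genes.

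All 9 estimates for CFA against CFS were below 0, from -0.50 for Flnc (95% interval -1.26 to 0.26) to -0.05 for Des (-0.65 to 0.54). Their median was -0.27, against 0.00 over all genes tested. Adjusted p-values ran from 0.411 to 0.983, and the sign for Des turned when 1 mouse was left out (-0.13 to 0.07). The mean log2 level of the 10 smooth muscle markers differed by -0.34 between the same groups.

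The genotypes were then compared under Ang II. Comparing CSA with CFA, all 9 genes were lower in every CSA aorta than in every CFA aorta, and all 9 met the call rule; among all genes tested, 25.1% were lower without overlap and 8.27% were called lower. This contrast chose the genes, and nothing is read from the counts. The median log2 fold change of the 9 genes was -2.67, against -0.04 over all genes. The sizes ranged from -1.56 for Flnc to -6.11 for Tcap.

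**Figure D3:**
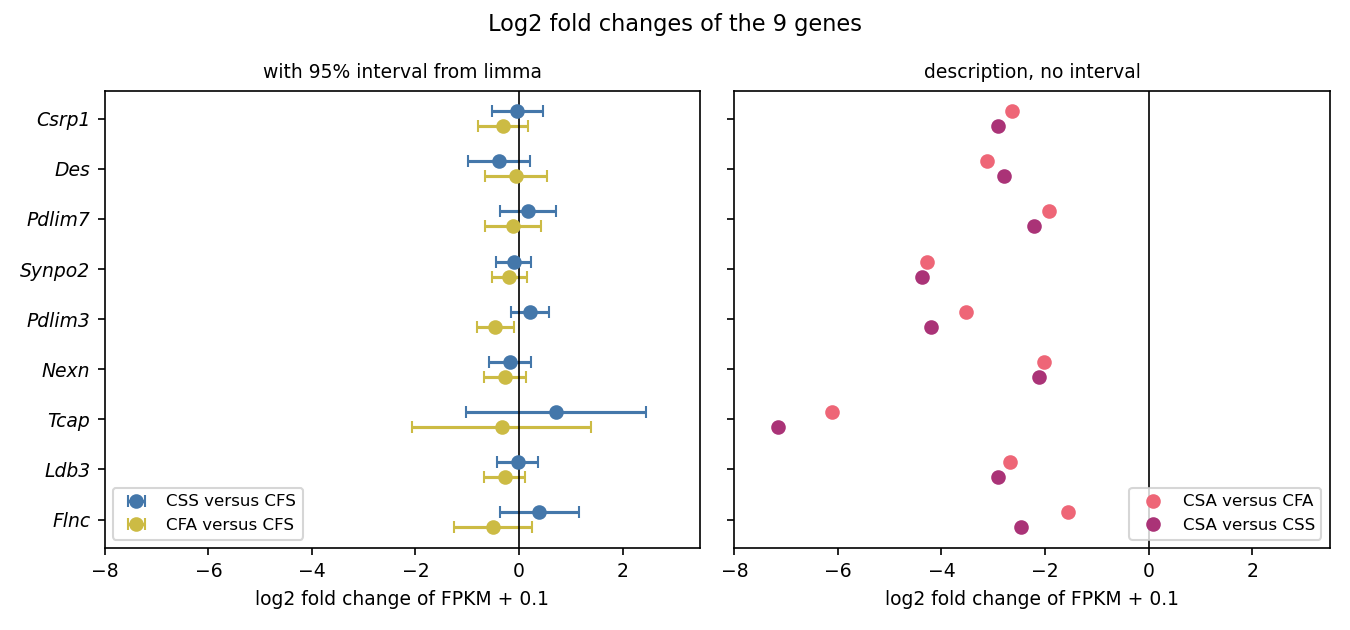
Log2 fold change of FPKM + 0.1 (x axis) of the 9 genes (y axis) for CSS versus CFS and CFA versus CFS, with 95% intervals from limma (left), and for CSA versus CFA and CSA versus CSS, as a description without intervals (right). On the left every interval but that of Pdlim3 for CFA versus CFS includes 0, and on the right values run from -1.56 (Flnc, CSA versus CFA) to -7.16 (Tcap, CSA versus CSS).

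Among the actin-binding genes, Synpo2 differed most. It encodes synaptopodin 2 (myopodin), which binds actin, α-actinin and filamin (ENSMUSG00000050315, chr3:123076519-123236149, minus strand). Synpo2 was at 98.1, 101.5 and 84.6 FPKM in CFS and at 99.4, 78.4 and 88.1 FPKM in CSS. It was at 100.1, 77.7 and 73.0 FPKM in CFA and at 3.82, 4.04 and 4.69 FPKM in CSA. The CSA aortas were close to each other and held 5.01% of the mean CFA level (83.6 ± 14.4 FPKM against 4.19 ± 0.454, SD, n = 3), a log2 fold change of -4.28. At least 941 fragments stood behind each of these values.

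Nexn encodes nexilin, an actin-binding protein of the Z-disc (ENSMUSG00000039103, chr3:152236982-152266350, minus strand). It was at 55.1, 60.7 and 51.8 FPKM in CFS and at 54.9, 44.2 and 50.4 FPKM in CSS. In CFA it was at 49.95, 50 and 39.5 FPKM, and in CSA at 9.46, 10.1 and 15.2 FPKM. CSA aortas thus kept 25.0% of the CFA mean, a log2 fold change of -2.02, and mouse 03 was the highest of them. In its exons, 7.5% of the bases overlap another annotated gene.

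Flnc encodes filamin C, the muscle filamin, which crosslinks actin (ENSMUSG00000068699, chr6:29433256-29461883, plus strand). It was at 24.2, 32.0 and 32.4 FPKM in CFS and at 52.5, 32.2 and 34.0 FPKM in CSS. In CFA it was at 21.5, 25.9 and 15.9 FPKM, and in CSA at 9.47, 9.41 and 3.76 FPKM. Flnc showed the smallest difference of the 9 genes, with 35.8% of the CFA mean left in CSA and a log2 fold change of -1.56. That value is close to the limit of 1.5: it was -1.12 without CSA mouse 03, -1.40 without CFA mouse 72, -1.43 with a pseudocount of 1 and -1.47 with FPKM scaled to the same sum, and in each of these Flnc was no longer called.

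Of the PDZ and LIM domain genes, which bind α-actinin, Pdlim3 differed most (ENSMUSG00000031636, chr8:45885461-45919548, plus strand). It was at 86.3, 68.2 and 79.4 FPKM in CSS. In CSA it was at 3.29, 4.99 and 4.31 FPKM, 8.55% of the CFA mean (49.1 ± 6.06 FPKM, SD, n = 3) and a log2 fold change of -3.53. The highest CSA aorta was thus below the lowest CFA aorta (44.3 FPKM).

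Ldb3 encodes the protein also called ZASP or Cypher (ENSMUSG00000021798, chr14:34526603-34588682, minus strand). It was at 35.2, 39.6 and 34.6 FPKM in CFS and at 40.5, 33.2 and 33.9 FPKM in CSS. In CFA it was at 28.3, 36.9 and 26.1 FPKM, and in CSA at 3.69, 5.68 and 4.77 FPKM. Its log2 fold change was -2.67, with 15.5% of the CFA mean left. This was the median of the 9 genes.

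Pdlim7 encodes the Enigma protein (ENSMUSG00000021493, chr13:55495795-55513676, minus strand). It was at 97.1, 117 and 94.9 FPKM in CFS and at 113, 106 and 131 FPKM in CSS. In CFA it was at 104, 101 and 80.0 FPKM, and in CSA at 33.1, 29.3 and 15.9 FPKM. The log2 fold change was -1.92, and 27.4% of the CFA mean was left, against 8.55% for Pdlim3.

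Csrp1, a LIM-only protein that binds α-actinin and zyxin, was the most abundant of the 9 genes in every group (ENSMUSG00000026421, chr1:135720061-135752232, plus strand). It was at 916, 1175 and 908 FPKM in CFS and at 989, 894 and 1032 FPKM in CSS. In CFA it was at 850, 996 and 608 FPKM, and in CSA at 133, 163 and 97.9 FPKM. CSA aortas held 16.0% of the CFA mean, a log2 fold change of -2.64.

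Des, which links dense bodies and Z-discs to each other through desmin filaments, is placed at chr1:75360329-75368579 on the plus strand (ENSMUSG00000026208), with 5.86% of its exonic bases shared with another gene. It was at 184, 175 and 139.5 FPKM in CFA and at 22.8, 25.9 and 11.4 FPKM in CSA. The log2 fold change was -3.12, with 12% of the CFA mean left.

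Tcap, which encodes telethonin, was the lowest of the 9 genes in CSA (ENSMUSG00000007877, chr11:98383811-98384953, plus strand). It was at 24.9, 30.4 and 47.2 FPKM in CFA and at 0.779, 1.14 and 0 FPKM in CSA. These CSA values rest on 15, 23 and 0 fragments, and the 0 allows up to 3 fragments or 0.206 FPKM in that library, counting error only. The fitted log2 fold change of -6.11 therefore depends on the pseudocount and on CSA mouse 03: it was -4.98 without that mouse and -4.44 with a pseudocount of 1. The ratio of the group means, CFA over CSA, was 53.3.

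The same 9 genes were lower in CSA than in CSS, without overlap, and all 9 met the call rule; among all genes tested, 29.1% were lower without overlap and 9.36% were called lower. The genes were selected on their CSA values, so these counts are a description and nothing is read from them. The median was -2.92 against -0.06 over all genes. The values for CSA against CSS and for CSA against CFA share the CSA libraries. They stood at -4.37 and -4.28 for Synpo2, at -2.46 and -1.56 for Flnc, and at -2.79 and -3.12 for Des. The interaction of genotype and treatment, which also uses CSA, had a median of -2.65 over the 9 genes, from -1.85 for Nexn to -6.83 for Tcap. It rests on the CSA values too, and its count (all 9 met the call rule, with 7.31% of all genes called lower) is likewise only a description. Without CSA mouse 03, Tcap was at -5.70 for the interaction and at -6.03 for CSA against CSS.

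The 9 genes were not lowered in proportion. As a share of their summed FPKM, Csrp1 was at 60.4% ± 3.84 in CFA and 62.3% ± 1.83 in CSA (SD, n = 3). Synpo2 went from 6.30% ± 1.12 to 2.10% ± 0.756, and Pdlim7 from 7.12% ± 0.526 to 12.2% ± 2.59. The order of the genes by mean FPKM also changed. On this measure Synpo2 had rank 4 of 9 in CFS, CSS and CFA and rank 8 in CSA. There its mean was just below that of Pdlim3 (4.185 against 4.198 FPKM). Its mean share was above that of Pdlim3 (2.10% against 2.07%). In CSA mouse 03 Synpo2 (4.69 FPKM) was also above Pdlim3 (4.31 FPKM). The mean of Flnc, the lowest in CFS and CFA, was above those of Ldb3, Pdlim3 and Synpo2 in CSA, but in CSA mouse 03 Flnc (3.76 FPKM) was below all 3 of them (4.31 to 4.77 FPKM). Between neighbours in CSA, the ranges overlapped for all but Csrp1 with Pdlim7 and Synpo2 with Tcap.

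The levels were also set against the smooth muscle markers, since all 10 of these were called lower in CSA than in CFA, with a median of -2.81 (-4.18 to -2.28). Their mean log2 level differed by -3.10. Relative to it, Des was at -0.02, and at 0.21 without CSA mouse 03. Synpo2 (-1.18), Tcap (-3.01, and -2.01 without CSA mouse 03) and Pdlim3 (-0.43) were lower than the markers, whereas Ldb3 (0.43), Csrp1 (0.46), Nexn (1.08), Pdlim7 (1.18) and Flnc (1.54) were less low. Without CSA mouse 03 these and the values of Synpo2 and Pdlim3 kept their sign, with Ldb3 at 0.28 and Nexn at 0.74; this alternative was chosen after seeing the data. For Flnc, Nexn, Pdlim7 and Csrp1 the 3 CSA aortas lay above all 3 CFA aortas on this relative scale, as did 91.4% of all genes tested, and for Synpo2, Tcap and Pdlim3 they lay below them, as did 0.409% of all genes. These counts rest on the CSA values that chose the genes and are a description. Between CSS and CFS the markers differed by -0.01, and relative to them Des was lower in the CSS aortas without overlap (5.18% of all genes) and Pdlim3 and Pdlim7 were higher (8.28% of all genes).

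Markers of other cells also differed between CSA and CFA, those of macrophages and neutrophils in the opposite direction to the 9 genes. Among all genes tested, 8.95% were called higher in CSA than in CFA. The 10 macrophage markers summed to 328 to 699 FPKM in CFA and 2417 to 2562 FPKM in CSA, and 9 of 10 were called higher. The 6 neutrophil markers summed to 10.6 to 26.6 FPKM in CFA and 490 to 534 FPKM in CSA, and all 5 tested were called higher. The 10 smooth muscle markers summed to 7851 to 11218 FPKM in CFA and 1023 to 1284 FPKM in CSA. Because FPKM are relative to the library, a larger share of other transcripts and a smaller output of the 9 genes cannot be told apart.

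Smaller lists gave further counts for CSA against CFA, where 8.95% of all genes tested were called higher and 8.27% lower. Of 4 lymphocyte markers tested 3 were called higher, of 6 endothelial markers 1 was higher and 3 were lower, of 6 adipocyte markers 2 were lower, and of 6 fibroblast and 4 Schwann cell markers 0 were called. Summed FPKM in CFA and CSA ranged from 0.909 to 2.16 and 7.98 to 12.2 for lymphocyte, 174 to 392 and 93.5 to 118 for endothelial, and 89.7 to 258 and 55.1 to 95.9 for adipocyte markers. They ranged from 2204 to 2428 and 3559 to 4248 for fibroblast and from 4.23 to 7.47 and 13.8 to 18.1 for Schwann cell markers. Skeletal and cardiac muscle markers summed to 15.8 to 34.7 FPKM in CFA and 7.96 to 10.5 FPKM in CSA, with 1 higher and 2 lower of 8 tested. Ckm, Myh4 and Tnnc2 were at 0 in all CSA libraries, and Tnnc2 was also at 0 in all CFA and all CSS libraries. No macrophage, smooth muscle, lymphocyte, endothelial, fibroblast, adipocyte or Schwann cell marker was at 0 in all libraries of CFA or CSA. Their part in the result was not tested.

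CSA mouse 03 differed from CSA mice 01 and 02 in a way that followed base composition. Its median absolute log2 difference from their mean was 0.593, against 0.164 between mice 01 and 02. Across 14407 genes, which are not independent replicates, the difference correlated with the GC content of the longest annotated transcript at r = -0.51, against 0.05 for mouse 01 against 02. The median difference was -1.01 for 3143 genes with over 55% GC and 0.55 for 3769 genes under 45% GC.

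Of the 9 genes, 4 were higher and 5 were lower in mouse 03 than in the other CSA mice. Nexn, with 39.6% GC, was higher in mouse 03 by 0.64, and Pdlim3 (43.0%), Synpo2 (47.8%) and Ldb3 (49.8%) differed by 0.09, 0.25 and 0.06. Csrp1 (54.6%) was at -0.59, Des (56.5%) at -1.08, Pdlim7 (57.9%) at -0.97, Flnc (58.4%) at -1.30 and Tcap (61.3%) at -3.39. The value for Tcap rests on 0 fragments in mouse 03 and so depends on the pseudocount. Without mouse 03, the log2 fold changes of CSA against CFA were -2.76 for Des, -1.60 for Pdlim7, -1.12 for Flnc and -2.23 for Nexn. Those of Synpo2 (-4.36), Pdlim3 (-3.56), Ldb3 (-2.69) and Csrp1 (-2.44) moved less.

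**Figure D4:**
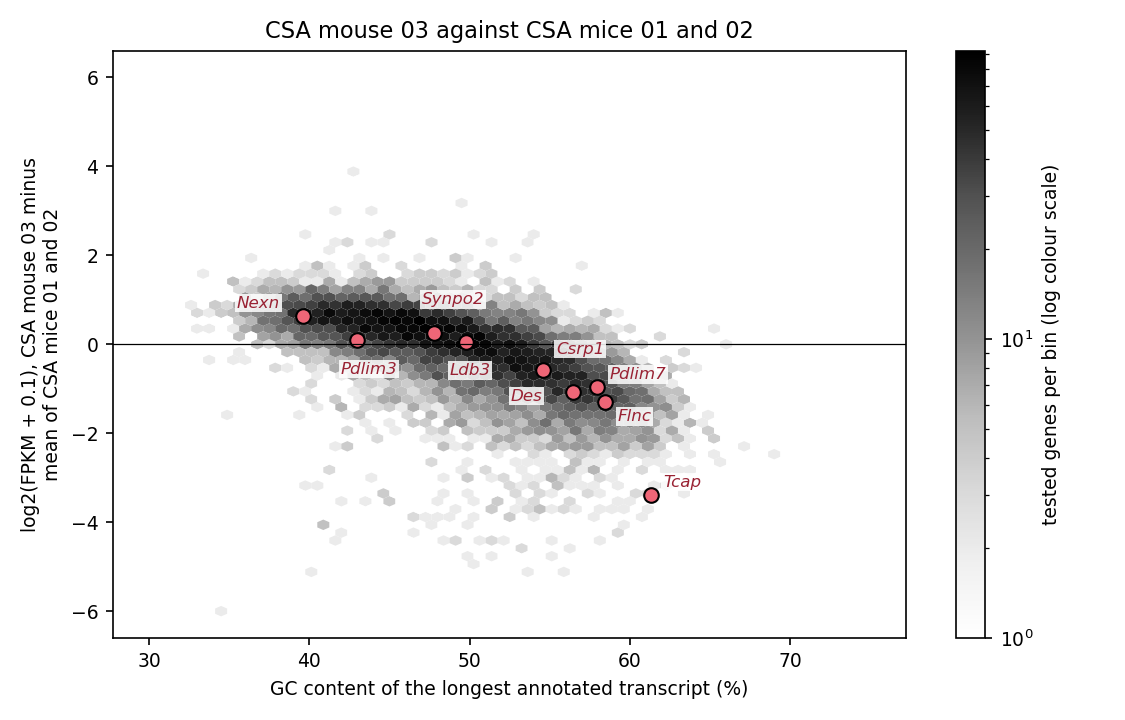
Log2(FPKM + 0.1) of CSA mouse 03 minus the mean of CSA mice 01 and 02 (y axis) against the GC content of the longest annotated transcript (x axis, percent), with tested genes as grey bins and the 9 genes as red points. Points run from Nexn (39.6% GC, 0.64) down to Tcap (61.3% GC, -3.39). Tcap lies below the bulk of genes of like GC content and rests on 0 fragments in mouse 03.

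Further genes of the same structures were taken from 5 lists, which hold 71 genes besides the 9, with 63 tested. Between CSA and CFA, 29 were called lower, against 8.27% of all genes tested, and 0 higher, with a median of -1.43. By adjusted p alone, 49 were lower, against 21.2% of all genes, and 3 higher. These lists too were made with results of this contrast known, so their counts are a description and nothing is read from them against the background. Between CSS and CFS and between CFA and CFS 0 of the 63 were called. Of the lists, intermediate filaments and their linkers had the lowest median (-2.12) and LIM proteins the highest (-1.11). From each list, the genes with the largest and the smallest difference between CSA and CFA are described by their mean FPKM in CFA and then in CSA, with the log2 fold change. Because this difference picked them, no p-value is given for it. Those with the largest difference met the call rule except Ilk, and those with the smallest did not.

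**Figure D5:**
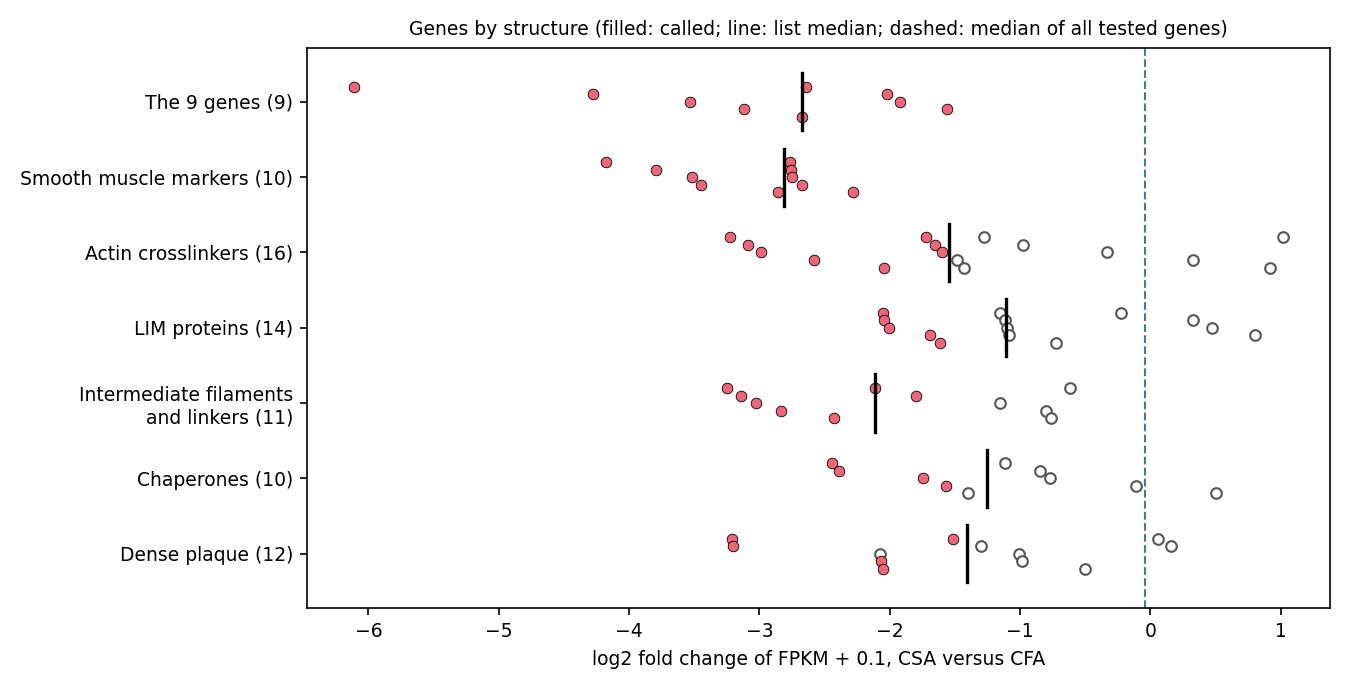
Log2 fold change of FPKM + 0.1 for CSA versus CFA (x axis) by gene list (y axis, with the number of tested genes); points are genes, filled where called, the black line is the list's median and the dashed line the median of all tested genes. The medians run from -2.81 for smooth muscle markers and -2.67 for the 9 genes to -1.11 for LIM proteins, against -0.04 for all tested genes.

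Of 16 actin crosslinkers tested, 8 were called lower, with a median of -1.54. Cap2, a cyclase-associated protein that acts on actin filaments, was at 14.03 ± 0.329 FPKM in CFA and 1.42 ± 0.205 FPKM in CSA (SD over 3 mice; -3.23 on the log2 scale). Synpo2l, the paralog of Synpo2, was at 5.38 and 0.532 FPKM (-3.09). Xirp1, an actin-binding Xin-repeat protein, was at 17.4 and 2.15 FPKM (-2.99). Capzb, a subunit of the actin capping protein, was at 78.1 and 98.5 FPKM (0.33), and Palld, palladin, at 50.2 and 39.3 FPKM (-0.33). With each mouse left out, Capzb ran from 0.19 to 0.40 and Palld from -0.52 to -0.11.

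Of 14 LIM proteins tested, 5 were called lower. Lpp, a relative of zyxin, was at 31.8 and 7.70 FPKM (-2.05). Fhl1, a LIM-only protein of muscle, was at 447 and 109 FPKM (-2.04), and Lmcd1 at 127 and 31.3 FPKM (-2.004). The PDZ and LIM gene Pdlim2 was at 13.5 and 12.47 FPKM (-0.22, and 0.20 without CSA mouse 03), and Lasp1 at 24.4 and 31.5 FPKM (0.33). Lasp1 ran from 0.15 to 0.56 with each mouse left out.

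Of 11 intermediate filament and linker genes tested, 7 were called lower. Members of the dystrophin complex, which joins the cytoskeleton to the membrane, led the list. Dmd was at 12.51 and 1.24 FPKM (-3.25), Sgca at 11.8 and 1.37 FPKM (-3.14) and Dtna at 4.95 and 0.523 FPKM (-3.02). Krt18, a keratin, was at 9.61 and 6.60 FPKM (-0.62, and -0.82 to -0.25 with each mouse left out). Plec, a linker of desmin, was at 29.99 and 18.6 FPKM (-0.76, and -0.39 without CSA mouse 03, in which it was lowest).

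Of 10 chaperones of filamin and desmin, 4 were called lower, all of them small heat shock proteins. Hspb6 was at 36.3 and 6.51 FPKM (-2.44), Hspb1 at 308 and 60.4 FPKM (-2.39) and Hspb7 at 163 and 48.2 FPKM (-1.74). The call for Hspb7 was lost without CFA mouse 72 (-1.41). Stub1, a ubiquitin ligase, was at 25.6 and 23.8 FPKM (-0.11), with 42.3% of its exonic bases shared with other genes, and Hspa8, a constitutive Hsp70, at 227 and 330 FPKM (0.51). With each mouse left out, Stub1 ran from -0.19 to -0.03 and Hspa8 from 0.16 to 0.79.

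Of 12 genes of the membrane dense plaque, the attachment of actin to the cell membrane, 5 were called lower. Lims2, a partner of integrin-linked kinase, was at 83.4 and 9.56 FPKM (-3.21) and Tns1, tensin 1, at 248 and 28.6 FPKM (-3.20). Lims1, the paralog of Lims2, was at 30.2 and 31.7 FPKM (0.06), and Pxn, paxillin, at 13.5 and 16.2 FPKM (0.16). Ilk was at 3.28 and 1.44 FPKM (-2.08) and did not meet the rule; it did so without CSA mouse 02 (-2.98) and was at -0.59 without CSA mouse 03, and 89.7% of its exonic bases overlap other genes.

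The genes whose pattern over the 12 libraries was most like the mean of the 9 were Ppp1r12b (Pearson r 0.998), Cnn1 (0.997), Lims2 (0.997), Adcy5 (0.996) and Dpep1 (0.996). Ppp1r12b encodes a regulatory subunit of myosin phosphatase and Cnn1 is calponin 1. These libraries fall into CSA and the rest, and 10.04% of the other tested genes had an r above 0.9. The 9 genes themselves, which enter the mean, ranged from 0.934 for Flnc to 0.995 for Csrp1, and 970 other genes were at or above the value for Flnc.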

How the data were processed

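RNA-Seq was analysed from 12 abdominal aortas in 4 groups of 3 mice, with groups and mouse numbers taken from the sample labels. The authors deposited 1 FPKM value per gene in each aorta, without pooling. The submitters' processing notes name HISAT2 2.0.5, StringTie 1.3.3b, featureCounts 1.5.0-p3 and mm10. The table lists 55092 features, 54532 of them with an Ensembl identifier, and gene positions, exon lengths and GC content came from GENCODE M21 (GRCm38). With these lengths, at least 98.0% of the values under 100 fragments in each library came out whole within 0.05. That gave the library sizes, which include the scaling described next and so are not the number of fragments sequenced. The deposited values had also been scaled between libraries, a step not described in the sources used here, since the median log ratio to the mean library was the same in all 12; median-of-ratios scaling therefore changed nothing. Fold changes are on the log2(FPKM + 0.1) scale, which understates changes of low genes.

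These values were fitted with limma 3.58.1 in R 4.3.3 (eBayes, trend and robust both on), giving each group 1 coefficient over the 12 libraries without covariates. Benjamini-Hochberg adjustment of the two-sided p-values ran over the 14676 genes that reached 1 FPKM in 3 or more libraries. The call rule was an adjusted p under 0.05 with a log2 fold change beyond 1.5 in either direction, the thresholds of the study, whose own tool needs counts. P-values measure the spread between these mice only. Simulated data (13124 genes) were drawn for all 12 libraries from the CFS means with 1 common spread, and 200 genes were changed 8-fold in CSA. Between CSA and CFA 198 of the 200 were called, with 0 unchanged genes called. Between CSS and CFS, with no change simulated, 1 gene was called. In the data themselves 40.7% of genes had an adjusted p under 0.05 between CSA and CFA, and CSA mouse 03 held a shift with GC content. Neither was simulated, so the counts do not give the error rate in these data. Python 3.11.15 with pandas 2.3.3, numpy 2.4.6 and matplotlib 3.10.9 made the tables and plots.

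The 9 genes and the lists were chosen with earlier results of these data known. Named from each of the 5 lists were the 3 tested genes with the largest absolute difference between CSA and CFA and the 2 with the smallest, and, by likeness, the 5 genes with the highest correlation. Alternatives were a pseudocount of 1, no filter, a mean FPKM of at least 5, 2 rescalings of FPKM, eBayes without trend or robust settings, only the groups compared, no fold limit and leaving out each mouse. Leaving out both libraries with skeletal muscle transcripts, and CSA mouse 03 for levels relative to smooth muscle markers, was added after the data were seen, as were the alternatives for the interaction term of the named list genes.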

Additional observations from a re-analysis of the deposited data

Results flagged for a closer look

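For 15 of the named genes of the 5 lists, the interaction term in limma (CSA minus CSS less CFA minus CFS, in log2) passed an adjusted p of 0.05. Of these, all but Plec were picked for a large difference between CSA and CFA, which enters this term, so their values are a description and give no independent evidence of a difference between treatments. In crosslinkers and LIM proteins the term was -3.09 for Cap2, -3.39 for Synpo2l, -2.91 for Xirp1, -1.98 for Lpp, -2.43 for Fhl1 and -2.08 for Lmcd1. In intermediate filament and linker genes it was -3.39 for Dmd, -3.42 for Sgca and -3.24 for Dtna. In chaperones it was -2.50 for Hspb6, -2.53 for Hspb1 and -2.44 for Hspb7, and in the dense plaque -3.38 for Lims2 and -3.30 for Tns1. Plec, picked for a small difference between CSA and CFA, had a term of -1.39 (adjusted p 0.0241 by limma over 14676 genes, of which 13.7% had a term below 0 at an adjusted p under 0.05). Plec was at 23.92, 21.54 and 10.37 FPKM in CSA mice 01, 02 and 03, and without mouse 03 its term was -1.01 (adjusted p 0.0069). The term did not pass without CFS mouse 69 (-1.27, adjusted p 0.0564), CSS mouse 54 (-1.31, 0.0595), CSS mouse 56 (-1.37, 0.0541) or CFA mouse 72 (-1.25, 0.055), nor without both libraries with skeletal muscle transcripts (-1.50, 0.0661). The choice of Plec also used CSA and CFA, so its value is no independent evidence either. Macrophage and neutrophil markers had a term above 0 and were called in 9 of 10 and 5 of 5 tested, against 7.89% of all genes called higher. The part of these markers in the values above was not tested.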

How the results depend on the processing

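Counts of the 9 genes called kept their value in every comparison and under every alternative run, except that Flnc dropped out between CSA and CFA (8 of 9) with a pseudocount of 1, with FPKM scaled to the same sum, and without CFA mouse 72 or CSA mouse 03. Of the other 63 genes of the structures, 52 passed without the fold limit, against 29 with it (25 to 30 with each mouse left out). Small differences changed sign. For CSS against CFS, scaling to the same sum gave 0.03 for Ldb3 and 0.03 for Csrp1, and leaving out CFS mouse 68 and CSS mouse 55 gave 0.01 for Synpo2 and 0.00 for Ldb3. With each mouse left out, values ran from -0.12 to 0.03 for Ldb3 and -0.10 to 0.09 for Csrp1 (CSS against CFS), from -0.13 to 0.07 for Des (CFA against CFS), and, for CSA against CFA, from -0.47 to 0.20 for Pdlim2, -0.07 to 0.17 for Lims1 and -0.10 to 0.56 for Pxn. For these the cause was not tested. Few fragments limit Tcap in CSA (0 to 23). No paired analysis was possible because the groups share no mouse numbers.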
